A study of Rattus norvegicus with 9 samples.

Results

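The genes of the urea cycle and of liver ammonia handling were 10 in number: Cps1, Otc, Ass1, Asl, Arg1, Nags, Slc25a15, Slc25a13, Gls2 and Glul. Every probe set that the array annotation assigns to one of these symbols was taken, whatever its values, which gave 20 of 31042 probe sets and 10 of 14217 annotated genes. RNA came from the livers of 9 male GK (Goto-Kakizaki) rats, a strain with spontaneous type 2 diabetes, with 1 Affymetrix array per rat. CUMS major (CUMS 1 to 3, labelled major depression) and CUMS mild (CUMS 4 to 6, labelled mild depression) were exposed for 8 weeks to changing mild stressors (chronic unpredictable mild stress, CUMS), and control 1 to 3 (labelled undepression) were not. All rats were bought at 5 weeks of age, kept for 7 weeks until diabetic, and given repaglinide, an oral drug that raises insulin secretion, at 6 mg/kg before sacrifice. The CUMS rats were housed singly, so stress and single housing cannot be told apart. How the 2 depression labels were assigned is not given in the sources used here.

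In the liver, ammonia from amino acid breakdown enters the urea cycle in periportal hepatocytes, the first that portal blood reaches. Ammonia that escapes is taken up by a thin rim of perivenous hepatocytes, which fix it into glutamine. The mitochondrial steps are carried out by carbamoyl phosphate synthetase (Cps1), which needs N-acetylglutamate made by Nags, and by ornithine transcarbamylase (Otc). The cytosolic steps are carried out by argininosuccinate synthetase (Ass1), argininosuccinate lyase (Asl) and arginase (Arg1), which releases urea. Slc25a15 carries ornithine and citrulline across the inner mitochondrial membrane and Slc25a13, citrin, exports the aspartate that Ass1 uses. Gls2, liver glutaminase, frees ammonia from glutamine, and Glul, glutamine synthetase, binds it.

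The upstream sequences of 3 members are shown, for these reasons. Cps1 opens the pathway, Otc was the one member with an unadjusted p under 0.05, and Glul had a different order of the rats. In its probe set 1367632_at control 3 was highest instead of lowest, and in its other 2 probe sets CUMS 6 was highest. RefSeq promoter windows (assembly GRCr8, 250 bases before to 50 after each start) were found for 9 of the 10 members, 11 windows in all, the exception being Arg1. The 250 bases before the start are printed 5′ to 3′ for Cps1 (chr9:76063613-76063862, plus strand), Otc (chrX:15202474-15202723, minus strand) and Glul (chr13:68519250-68519499, plus strand, one of its 2 windows). Capitals mark matches to 4 motifs searched on both strands: AGAACA (part of a glucocorticoid receptor site), TTGCNNAA (C/EBP), TGACG (part of a cAMP response element) and CTTTGA (TCF).
Cps1: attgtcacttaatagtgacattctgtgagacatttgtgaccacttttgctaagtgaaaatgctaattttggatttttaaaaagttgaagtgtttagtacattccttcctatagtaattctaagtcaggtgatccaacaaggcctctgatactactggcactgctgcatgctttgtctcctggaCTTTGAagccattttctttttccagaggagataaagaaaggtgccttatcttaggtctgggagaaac
Otc: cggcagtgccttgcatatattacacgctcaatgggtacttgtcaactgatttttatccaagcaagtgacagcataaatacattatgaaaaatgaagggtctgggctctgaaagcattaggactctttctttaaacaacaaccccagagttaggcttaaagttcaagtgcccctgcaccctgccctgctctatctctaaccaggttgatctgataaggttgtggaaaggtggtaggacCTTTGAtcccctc
Glul: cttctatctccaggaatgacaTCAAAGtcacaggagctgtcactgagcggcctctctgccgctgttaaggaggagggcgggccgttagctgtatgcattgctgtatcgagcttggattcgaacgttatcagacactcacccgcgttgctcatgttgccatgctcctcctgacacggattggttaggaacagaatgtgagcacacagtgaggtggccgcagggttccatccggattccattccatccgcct
CTTTGA was found in 3 of the 11 whole windows (Cps1, Otc and Glul) and in 16.1% of all 33469 windows. Counted from the start, the first match began at −67 in Cps1, −13 in Otc and −229 in Glul. TGACG was found in 4 of 11 (Nags, Slc25a13, Gls2 and Glul, where it lies past the start and is not printed) and in 21.2% of all windows. AGAACA (20.7% of all) and TTGCNNAA (10.6% of all) had no match in these 11 windows. The other window of Glul and the other window of Gls2 had no match to any of the 4 motifs. The printed Glul window is thus the one with matches. A match is a description of letters, and no factor was measured here.

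Values are MAS 5.0 signals, a linear brightness per probe set that the authors scaled to the same trimmed mean on each array. Signals of different probe sets cannot be ranked against each other, since probes differ in binding. Of the 20 member probe sets, 19 passed the filter on low signals, with all 10 genes among them. The one left out, Slc25a15 1381440_at, had signals of 3.2 to 11.48. Differences are log2 fold changes from limma, first group minus second, with p adjusted over all 18625 probe sets kept and a call at an adjusted p under 0.05.

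Control 3 stood apart from the other livers. It had the lowest median correlation with the other arrays (0.951, against 0.965 to 0.972). It also had the lowest actin 3′ to 5′ signal ratio (2.51, against 3.18 to 5.23), a measure of RNA integrity that rises as RNA degrades. The same ratio for GAPDH was 1.34 in control 3, within the 1.32 to 1.75 of the other rats. CUMS 2 had the highest ratio for both genes. The summed signal of all 10 stellate cell and fibroblast markers was 6412 to 7012 in CUMS major, 7692 to 9775 in CUMS mild and 10559 to 26569 in control rats, with the highest value in control 3. No marker was at 0. The 4 bile duct markers kept, of 5 on the array, and the 5 dividing cell markers kept, of 6, were all highest in control 3. The filter on low signals takes the mean over all arrays, control 3 among them, so it favours markers high in that rat. Other lists were mixed in control 3. Of 6 Kupffer cell and macrophage markers 4 were highest there and 1 lowest. Of 5 endothelium markers 3 were highest and 1 lowest. Of the 3 blood and lymphocyte markers kept, of 5 on the array, 1 was highest and 1 lowest. Hepatocyte markers (7 genes) summed to 160038 to 183369 in CUMS major, 197835 to 211730 in CUMS mild and 162484 to 198308 in control rats. The part of other cell types in the member values was not tested, and in bulk liver, fewer hepatocytes and less RNA per hepatocyte cannot be told apart. Member values are therefore given with and without control 3.

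None of the 10 genes was called in CUMS livers. The call rate over all probe sets was 0% in each of the 4 comparisons too (CUMS major, CUMS mild and all CUMS against control, and CUMS major against CUMS mild). At an unadjusted p under 0.05, 6.76% of all probe sets differed in CUMS major against control, 6.28% in CUMS mild, 7.93% in all CUMS and 2.85% between the CUMS groups. Of the 19 member probe sets, 0, 1, 0 and 0 did so, the one being Otc in CUMS mild. Adjusted p from limma ran over the members from 0.801 to 0.982 in CUMS major and from 0.777 to 0.986 in CUMS mild. The 95% interval of the fold change lay within 1.5-fold in either direction for 10 of 19 probe sets in CUMS major and 9 of 19 in CUMS mild, and within 2-fold for 17 of 19 in each.

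**Figure D1:**
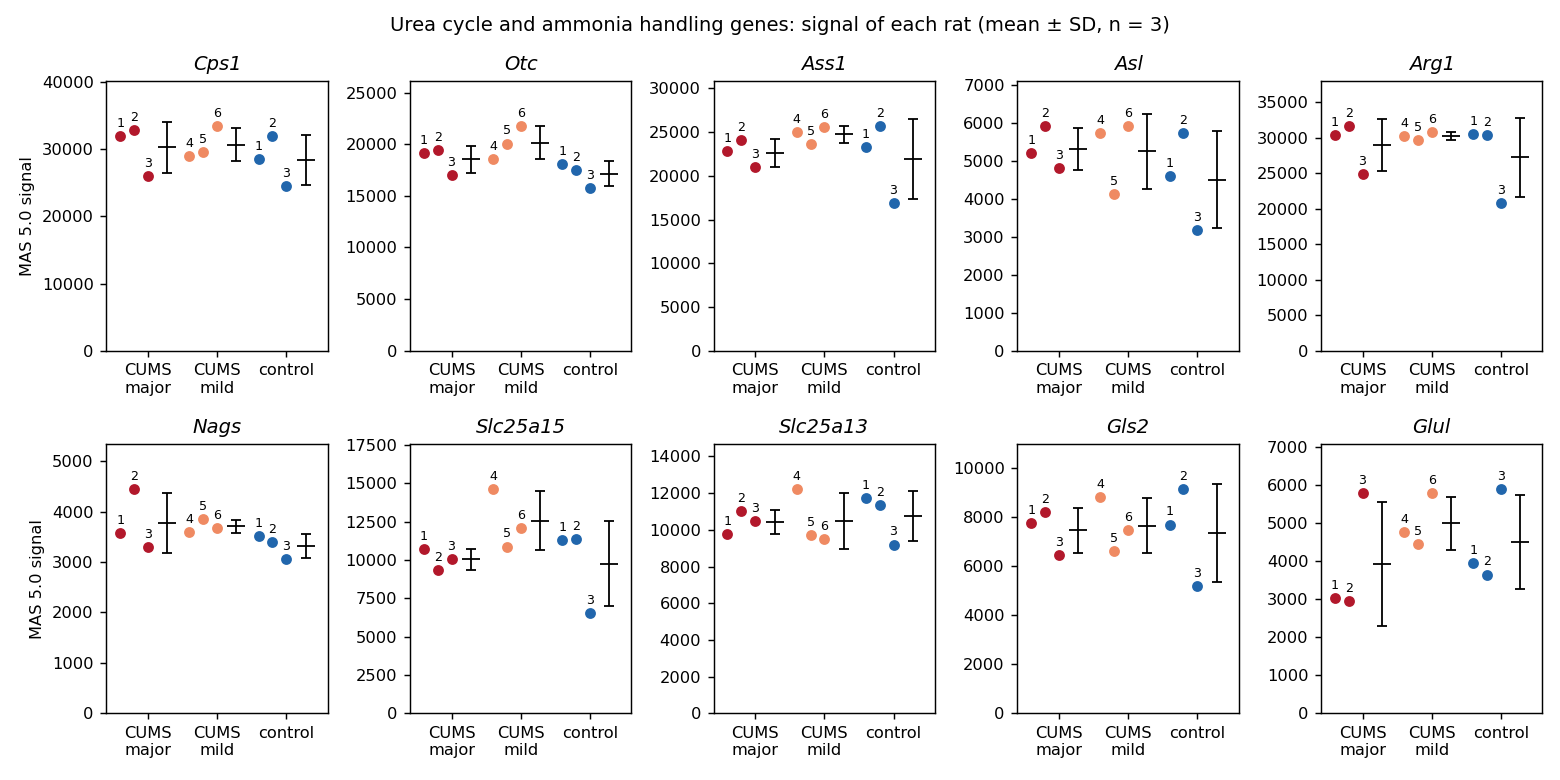
MAS 5.0 signal (vertical axis) of the probe set with the highest mean signal for each of the 10 genes in the 3 CUMS major, 3 CUMS mild and 3 control rats. Points are rats with their number, the bar is the mean and the whiskers are the SD (n = 3), and control 3 is the lowest rat for 9 of the 10 genes and the highest for Glul.

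Of the mitochondrial genes, Cps1 (1384334_at) had 32026, 32867 and 25952 in CUMS major, 28970, 29580 and 33461 in CUMS mild, and 28508, 32012 and 24575 in control livers. The groups overlapped, with CUMS 3 and control 3 low. The log2 fold change was 0.09 ± 0.12 (SE) in CUMS major and 0.12 ± 0.12 in CUMS mild, and the second Cps1 probe set (1370151_at) gave 0.17 and 0.24. Without control 3 these were 0.00 and 0.02 for the first and 0.01 and 0.08 for the second. Nags, which makes the activator of Cps1, had 3565, 4453 and 3306 in CUMS major, 3599, 3846 and 3674 in CUMS mild, and 3519, 3387 and 3051 in control livers. Every CUMS mild rat was above every control rat, with a log2 fold change of 0.16 ± 0.12 (limma, adjusted p = 0.850), and of 0.10 without control 3.

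Otc had the smallest p of the members in CUMS mild. Its signal was 19134, 19430 and 17024 in CUMS major, 18592, 20071 and 21770 in CUMS mild, and 18081, 17539 and 15766 in control livers. All 3 CUMS mild rats were above all 3 control rats, while CUMS 3 was below 2 of the controls. The log2 fold change in CUMS mild was 0.23 ± 0.10, a fold change of 1.18 (unadjusted p = 0.0363 from limma), but the adjusted p was 0.777, and without control 3 the log2 fold change was 0.17. In CUMS major it was 0.11 ± 0.10. Otc and Nags were the only members among the 19 probe sets without overlap in CUMS mild, where 5.34% of all probe sets lay wholly above the control rats. In CUMS major 0 of 19 did, against 5.3% of all probe sets.

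The cytosolic enzymes shared a low value in control 3. Ass1 had 22791, 24085 and 20961 in CUMS major, 25020, 23627 and 25545 in CUMS mild, and 23267, 25704 and 16857 in control livers. Asl (1368916_at) had 5212, 5926 and 4813 in CUMS major, 5731, 4129 and 5925 in CUMS mild, and 4611, 5735 and 3195 in control livers. For both, control 2 was among the 3 highest rats and control 3 was the lowest of the 9. The log2 fold changes were 0.06 and 0.19 for Ass1 and 0.27 and 0.24 for Asl, in CUMS major and CUMS mild in that order, and without control 3 they were −0.12 and 0.02 for Ass1 and 0.04 and 0.01 for Asl. A second probe set annotated to Asl (1367754_s_at), whose source accession the RefSeq table gives to Hnrnpab, followed Asl over the 9 arrays (r = 0.954) and had log2 fold changes of 0.33 and 0.39. Arg1 had 30397, 31655 and 24887 in CUMS major, 30293, 29661 and 30835 in CUMS mild, and 30530, 30421 and 20815 in control livers. The other rats lay between 29661 and 31655, and CUMS 3 and control 3 lay below them. Arg1 had a log2 fold change of 0.10 ± 0.15 in CUMS major and 0.17 ± 0.15 in CUMS mild, and of −0.08 and −0.01 without control 3.

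The 2 carriers differed in pattern. Slc25a15 (1374800_at) had 10704, 9356 and 10090 in CUMS major, 14662, 10888 and 12121 in CUMS mild, and 11344, 11394 and 6545 in control livers. CUMS 4 was high and control 3 low. All CUMS major rats were below all CUMS mild rats, with a log2 fold change of −0.31 ± 0.20 in CUMS major against CUMS mild (limma, adjusted p = 0.9996), and 4.37% of all probe sets lay wholly below in that comparison. The other 4 probe sets of the gene overlapped there. Without control 3 in the shared spread, the first had an unadjusted p of 0.0182 (limma, adjusted p = 0.9995), the one member probe set under 0.05. The log2 fold change of Slc25a15 in CUMS mild against control was 0.40 ± 0.20, and 0.13 without control 3. Its other 4 probe sets kept had log2 fold changes of 0.22 to 0.42 in CUMS mild and of −0.11 to 0.14 in CUMS major, and the 5 probe sets correlated with each other over the arrays at r = 0.621 to 0.980. Slc25a13 (1389622_at) had 9752, 11052 and 10475 in CUMS major, 12246, 9697 and 9529 in CUMS mild, and 11754, 11332 and 9203 in control livers. The groups overlapped throughout, and the log2 fold change was −0.04 ± 0.13 in each CUMS group and −0.15 in each without control 3.

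Glutamine is split by Gls2 and made by Glul. Gls2 had 7751, 8233 and 6457 in CUMS major, 8846, 6631 and 7480 in CUMS mild, and 7707, 9169 and 5203 in control livers, with log2 fold changes of 0.05 ± 0.19 in CUMS major and 0.09 ± 0.19 in CUMS mild. Without control 3 both turned sign, to −0.18 and −0.15. Glul (1367632_at) had 3021, 2944 and 5803 in CUMS major, 4760, 4445 and 5786 in CUMS mild, and 3961, 3651 and 5907 in control livers. One rat in each group was high, namely CUMS 3, CUMS 6 and control 3, and the groups overlapped. The log2 fold change of Glul was −0.24 ± 0.26 in CUMS major, 0.17 ± 0.26 in CUMS mild and −0.42 ± 0.26 in CUMS major against CUMS mild (limma, unadjusted p = 0.136). Without control 3 it was −0.03 in CUMS major and 0.38 in CUMS mild. Its other 2 probe sets gave −0.34 and −0.45 in CUMS major and 0.07 and −0.10 in CUMS mild (−0.16 and −0.33, and 0.25 and 0.03, without control 3), and the 3 correlated over the arrays at r = 0.846 to 0.964.

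**Figure D2:**
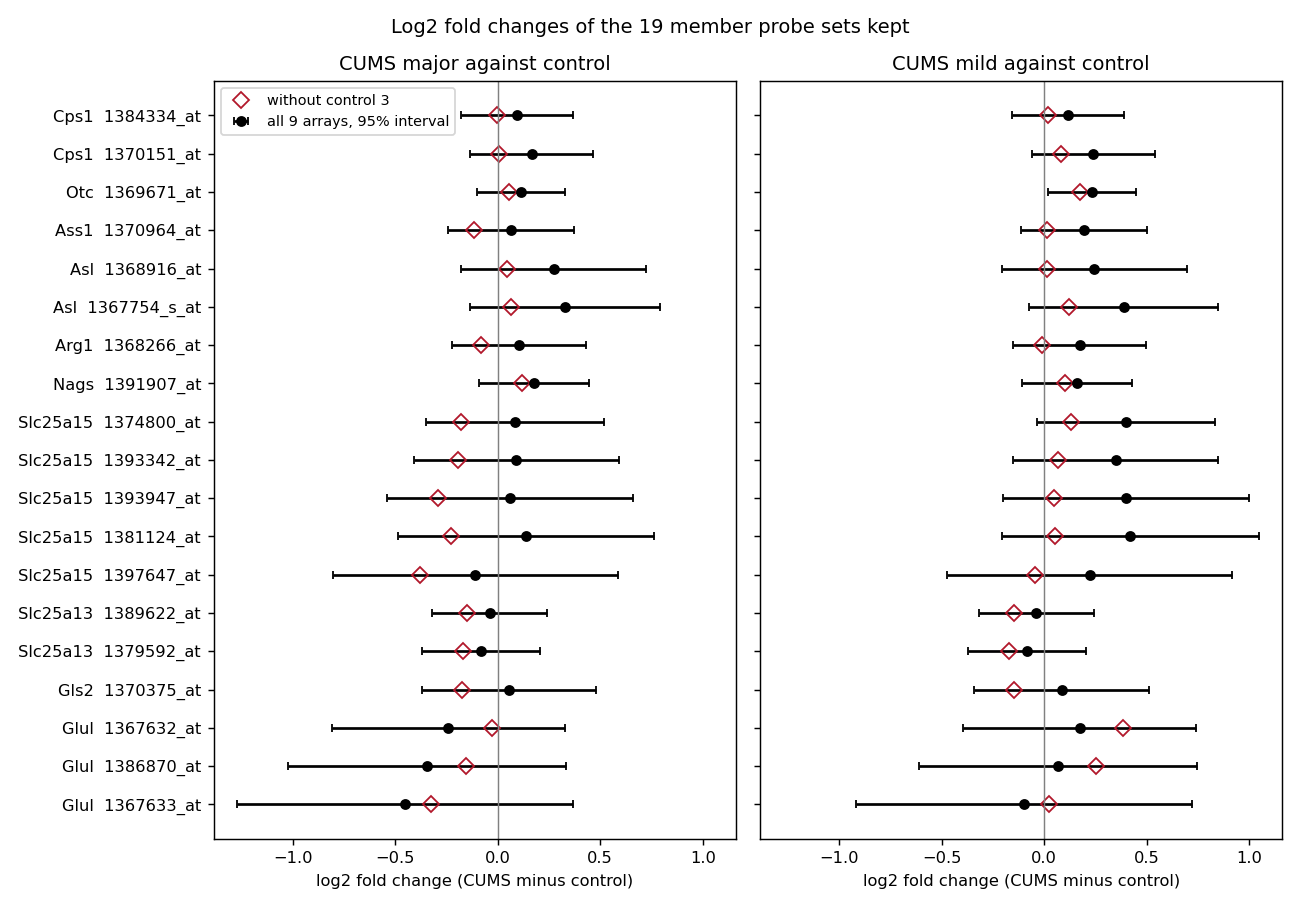
Log2 fold change (horizontal axis, CUMS minus control) of the 19 member probe sets kept, in CUMS major (left) and CUMS mild (right). Filled points and whiskers are the limma estimate and 95% interval over all 9 arrays, open diamonds the estimate without control 3, and only the interval of Otc in CUMS mild leaves out 0.

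Over the whole set, 13 of 19 probe sets had a higher mean in CUMS major and 16 of 19 in CUMS mild, with median log2 fold changes of 0.09 and 0.19, against −0.01 and −0.02 over all probe sets. Much of this rested on control 3. It was the lowest of the 9 rats in 14 of the 19 probe sets and for 9 of the 10 genes, whereas it was the lowest for 14.4% of all probe sets. Without control 3, 5 of 19 were higher in CUMS major, with a median of −0.15, and 14 of 19 in CUMS mild, with a median of 0.05. The direction of the set in CUMS major therefore turned with this 1 rat. The 2 comparisons share their control rats. In all 6 CUMS rats against control, 14 of 19 had a higher mean, with a median of 0.14, and 8 of 19 without control 3, with a median of −0.05. The lowest adjusted p there was that of Otc, with a log2 fold change of 0.17 ± 0.08 (limma, adjusted p = 0.660). Between the CUMS groups, 16 of 19 had a lower mean in CUMS major than in CUMS mild, with a median of −0.12, and 8 of the 10 genes, with a median of −0.05, since 8 of the 19 probe sets belong to Slc25a15 and Glul. Over all probe sets the median was 0.006 and 9072 of 18625 were lower. All 7 hepatocyte markers also had a lower mean in CUMS major than in CUMS mild, with a median of −0.18, and their part in the member values was not tested.

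**Figure D3:**
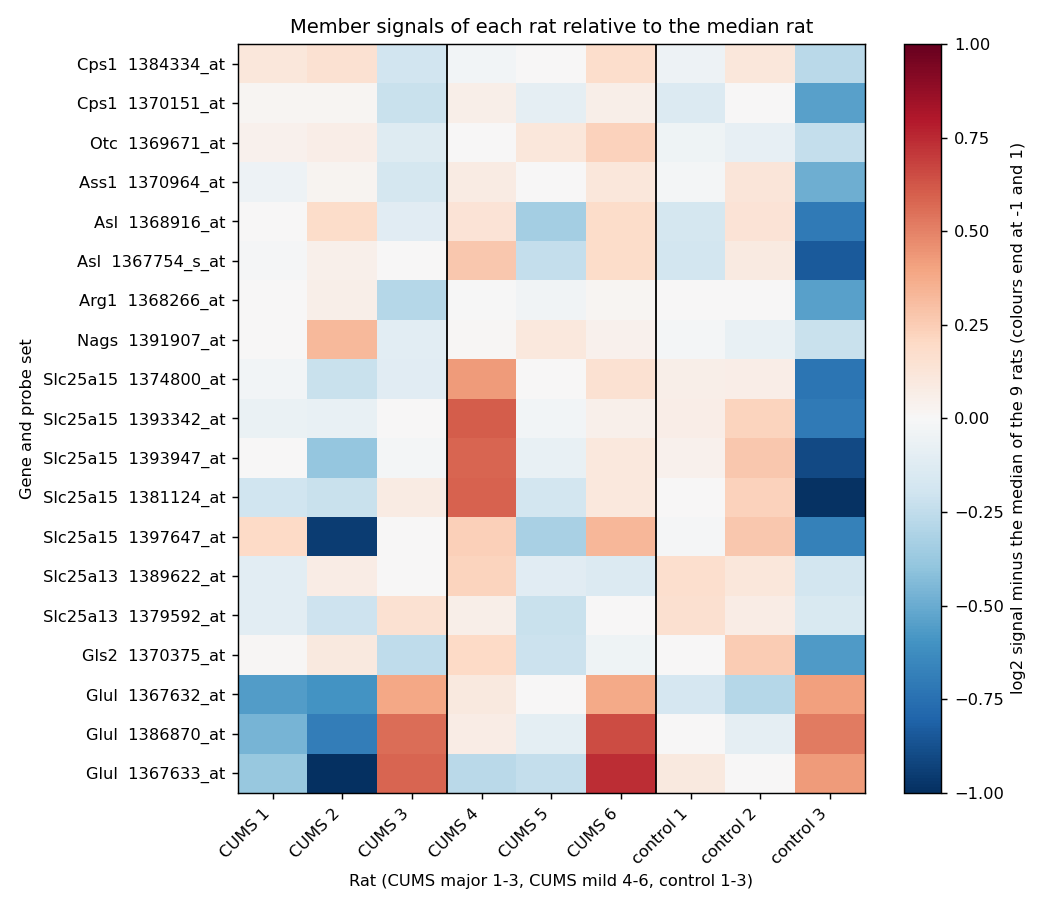
Log2 signal of each rat minus the median of the 9 rats (colour, ending at −1 and 1) for the 19 member probe sets (rows) in CUMS 1 to 6 and control 1 to 3 (columns). Control 3 is blue in nearly all rows except those of Glul, which are red in CUMS 3, CUMS 6 and control 3, and the Slc25a15 rows are red in CUMS 4.

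CUMS 3 and control 3 were also dim at the top of the scale. The highest signal on the array was 34226 in CUMS 3 and 34927 in control 3, against 38935 to 46546 in the other 7 rats. The median log2 deviation of the 200 brightest other probe sets was −0.15 in CUMS 3 and −0.20 in control 3, against −0.02 to 0.14 elsewhere. Cps1, Otc, Ass1 and Arg1 were as bright, with group means above 16442, the lowest mean among those 200. After quantile normalization, which evens out the brightness scale, control 3 was still the lowest rat in 11 of 19 member probe sets and for 6 of the 10 genes, no longer for Cps1, Otc or Slc25a13. What part of the low values the brightness scale accounts for was not tested.

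**Figure D4:**
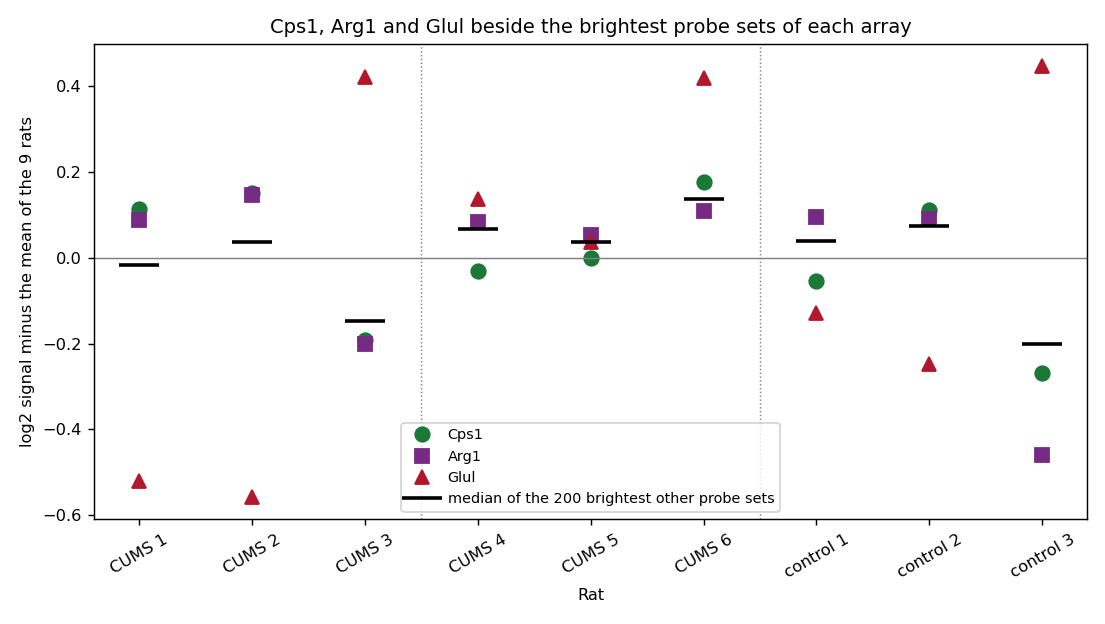
Log2 signal minus the mean of the 9 rats (vertical axis) for Cps1, Arg1 and Glul in each rat, with a bar at the median of the 200 brightest other probe sets of that array. Cps1 and Arg1 are lowest in CUMS 3 and control 3, where the bar is also lowest at −0.15 and −0.20, and Glul is high in CUMS 3, CUMS 6 and control 3.

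The rat-to-rat relation of Glul to the other members did not pass adjustment and depended in part on control 3. Over the 9 rats, Pearson's r of its log2 signal was below 0 with each of the other 9 genes, from −0.63 with Arg1 (Spearman's rho = −0.67, exact permutation p = 0.0461 for r and 0.0589 for rho) to −0.14 with Slc25a15 (rho = −0.03, exact permutation p = 0.747 and 0.948). None of the 9 relations passed adjustment, the lowest adjusted p being 0.200 for r and 0.265 for rho (two-sided exact permutation). Without CUMS 1 and CUMS 2, the rats farthest from the median of Glul, r with Arg1 was −0.62 and with Cps1 −0.42, against −0.61 over all 9 rats. Without control 3, r was 0.40 with Slc25a15 and 0.08 with Otc, between −0.16 and −0.10 with Ass1, Asl and Slc25a13, and between −0.57 and −0.46 with Arg1, Cps1, Gls2 and Nags, with adjusted exact permutation p of 0.567 to 0.844. After the group means were taken out over all 9 rats, r was −0.83 with Arg1 and −0.75 with Cps1 (adjusted permutation p = 0.0659 for each). That p is not exact and may be too small. All 9 rats were permuted, although deviations cancel within each group. Among 10402 other genes, Cps1 was most alike over the 9 arrays to Atp5pb (r = 0.942), Rab3gap1, Slc25a21, Yeats4 and Cat (r = 0.914), and Arg1 ranked 31 in likeness to it. Glul was most alike to Flvcr2 (r = 0.924), Zfp955a, Csrp2, Hcfc2 and Ogg1 (r = 0.911). These likenesses are a description without a test, since values of 1 array share its brightness scale and RNA quality.

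Genes that feed the cycle were looked at as a list of 17 measured genes. In CUMS major, 10 had a higher and 7 a lower mean, with a median log2 fold change of 0.14 (−0.14 without control 3), and 3 were higher at an unadjusted p under 0.05, against 2.59% of all probe sets. In CUMS mild, 14 were higher and 3 lower, with a median of 0.24 (0.03 without control 3), and 3 were higher at an unadjusted p under 0.05, against 2.73% of all. Glud1, glutamate dehydrogenase, which frees ammonia from glutamate in mitochondria, had 20036, 18421 and 17675 in CUMS major, 16944, 17998 and 19925 in CUMS mild, and 16508, 14262 and 13289 in control livers. Mdh2, mitochondrial malate dehydrogenase, had 5799, 6568 and 5137 in CUMS major, 5401, 5534 and 5479 in CUMS mild, and 4633, 4718 and 4470 in control livers. For both genes every CUMS rat was above every control rat, as for 284 of all 18625 probe sets. Both were named for being among the smallest p of the list. Their log2 fold changes in CUMS major were 0.35 ± 0.11 for Glud1 and 0.33 ± 0.10 for Mdh2 (limma, adjusted p = 0.665 and 0.685). Without control 3 they were 0.28 and 0.31. Prodh, proline dehydrogenase, had a log2 fold change of 0.45 ± 0.18 in CUMS major (adjusted p = 0.733).

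Genes that use arginine and ornithine (12 kept, of 14 on the array) had a median of 0.04 in CUMS major, with 7 higher and 5 lower (0.01, with 6 and 6, without control 3). In CUMS mild the median was −0.02, with 6 higher and 6 lower (0.02, with 6 and 6, without control 3). Ddah1, which breaks down methylated arginine, had a log2 fold change of 0.48 ± 0.19 in CUMS major. Agmat, named for agmatinase, had 3386, 3745 and 3678 in CUMS major, 4517, 3935 and 4636 in CUMS mild, and 3358, 3219 and 2625 in control livers. Every CUMS rat was above every control rat for Agmat, named for its small p, as for 284 of all 18625 probe sets. Its log2 fold change in CUMS mild was 0.51 ± 0.12 (limma, unadjusted p = 0.00125, adjusted p = 0.744). Transporters of nitrogen compounds (11 kept, of 14 on the array) had a median of −0.14 in CUMS major with 4 higher and 7 lower (−0.11, with 2 and 9, without control 3), and 0 at an unadjusted p under 0.05. Regulators of urea cycle genes (15 measured, with the enzyme genes Pck1 and Tat listed among them) had a median of −0.01 in CUMS major. Of these 15, 7 were higher and 8 lower, with 0 at an unadjusted p under 0.05. Leaving out control 3 gave 2 higher and 13 lower, at a median of −0.16. Cebpb and the glucocorticoid receptor gene Nr3c1 had log2 fold changes of −0.20 ± 0.17 and −0.19 ± 0.22 in CUMS major. The largest change of the list was that of Onecut1, at −0.76 (−1.04 to −0.36 over the rats left out). Foxa1 had 416, 330 and 396 in CUMS major and 532, 438 and 420 in control livers. It was the 1 regulator wholly below the controls, as were 1177 of all 18625 probe sets.

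The liver zones to which the 2 arms of ammonia handling belong were described by marker genes. Perivenous genes (12 kept, of 13 on the array, Glul not among them) had a median log2 fold change of 0.16 in CUMS major, 9 higher and 3 lower. In CUMS mild the median was 0.36, with 12 higher and 0 lower. Without control 3 these medians were 0.19, with 7 higher and 5 lower, and 0.34, with 9 higher and 3 lower. CUMS 6 had a summed signal of the 12 genes of 116205, against 74635 to 77638 in the other CUMS rats and 61871 to 81104 in control rats. Bright probe sets weigh most in that sum. By the mean log2 difference from the control mean, CUMS 6 (0.86) and CUMS 3 (0.52) both stood apart, against −0.04 to 0.17 in the other rats. CUMS 6 was the highest rat for 6 of the 12 genes and CUMS 3 for 5. Without CUMS 6, 9 were higher and 3 lower in CUMS mild, with a median of 0.14. The list was not taken again without CUMS 3. Nr1i3, the xenobiotic receptor CAR, had 518, 744 and 766 in CUMS major, 365, 619 and 720 in CUMS mild, and 384, 212 and 388 in control livers. Its log2 fold change was 1.07 ± 0.30 in CUMS major (limma, adjusted p = 0.637). All CUMS major rats were above all controls for Nr1i3, as for 5.3% of all probe sets. In CUMS mild its log2 fold change was 0.79 ± 0.30 (limma, adjusted p = 0.757), and CUMS 4 lay among the controls. Tbx3, a transcription factor and target of Wnt signalling, had 380, 468 and 731 in CUMS major, 397, 566 and 593 in CUMS mild, and 276, 332 and 329 in control livers. All 6 CUMS rats were above all 3 controls, as for 284 of all 18625 probe sets. The log2 fold change of Tbx3 was 0.70 ± 0.24 in CUMS major and 0.71 ± 0.24 in CUMS mild (limma, adjusted p = 0.722 and 0.744). Nr1i3 and Tbx3 were named for their small p. Slc1a2, one of the 3 lower perivenous genes in CUMS major, had −0.98 ± 0.50 there (limma, adjusted p = 0.755) and 0.03 in CUMS mild. Periportal genes (13 measured, 4 of which are members) had medians of 0.00 in CUMS major and 0.11 in CUMS mild, and −0.11 and 0.02 without control 3.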

How the data were processed

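The authors used TRIzol for extraction, a 3′ IVT Express kit for labelling and GCOS for data acquisition. The deposited values are MAS 5.0 signal intensities on a linear scale, scaled by the authors to a trimmed mean of 500.2 on each array. Median signals were 108 to 134, and the number of arrays limits the precision. Without the 57 control probe sets, signals were floored at 1 (586 were below it) and log2 was taken. A filter removed the dimmest 40% by mean log2 and kept 18625 probe sets of 10403 genes with a mean above 6.07. The 3 groups were fitted together with limma 3.58.1 in R 4.3.3 (6 residual degrees of freedom, variance trend, Benjamini-Hochberg over all probe sets). Each rat is 1 array, so p-values set group differences against the spread between arrays within groups. In that spread, differences between rats and between arrays cannot be told apart. Where a gene has several probe sets, the one with the highest mean signal stands for it in counts of genes. Every member probe set is named; from each list up to 4 genes with the smallest p in CUMS major and 2 in CUMS mild could be named, and the 5 genes most alike to Cps1 and to Glul. The members and lists were chosen with earlier results of these data known. Alternatives covered normalization, filter, offset, variance model, the replicate block, the ANOVA of the methods and leaving out each rat, and, chosen after seeing the data, leaving out CUMS 6 from the perivenous list. The fit was tested on simulated data. Replicate numbers did not pair the rats: deviations from group means of same-numbered CUMS major and control rats correlated at 0.00, −0.05 and 0.14.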

Additional observations from a re-analysis of the deposited data

Results flagged for a closer look

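Among the 6 CUMS rats, 19 member probe sets were examined for a rat far from the rest, and 2 held one; chance flags about 1 in 20 groups. Arg1 was lowest in CUMS 3, at 24887, and the gap to the next CUMS rat was 0.729 of the whole range of the 6 rats. The Slc25a15 probe set 1393342_at was highest in CUMS 4, at 12753, with a gap of 0.815 of the range; the other 5 CUMS rats lay between 7968 and 8692.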

How the results depend on the processing

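The count of called probe sets was 0 in all 4 comparisons, and so it was in 70 of 77 counts under other settings. ANOVA with adjusted p called 1 in CUMS major against control, and median centring called 1 in CUMS mild and 1 in all CUMS against control. The thresholds of the methods were a fold change of 1.5 and above, or 0.5 and below, at an unadjusted ANOVA p under 0.05. They were applied to all 31042 probe sets, before the filter on low signals, and not to the 18625 kept. These thresholds gave 608, 640 and 758 in CUMS major, CUMS mild and all CUMS against control, and 509 in CUMS major against CUMS mild. Leaving out each rat in turn gave 0 in every comparison. With the replicate block 0 were called in CUMS major against control, with 1361 at an unadjusted p under 0.05 against 1259 without it. Nr1i3 in CUMS major and Tbx3 in CUMS mild passed only at the thresholds of the methods.

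Of 1229 values of single genes under other settings, 1196 kept their direction and side of the threshold and 31 turned sign. Slc25a13 (1389622_at) turned to 0.00903 in CUMS major and 0.019 in CUMS mild with median centring. With array weights, Ass1, Slc25a15 (1374800_at) and Gls2 turned to −0.0056, −0.019 and −0.024 in CUMS major, and Gls2 to −0.064 in CUMS mild. Over the rats left out, the log2 fold change in CUMS major ran from −0.0044 to 0.20 for Cps1 (1384334_at), −0.12 to 0.19 for Ass1, −0.080 to 0.21 for Arg1, −0.18 to 0.22 for Slc25a15, −0.15 to 0.028 for Slc25a13, −0.18 to 0.23 for Gls2, −0.40 to 0.020 for Cebpb and −0.27 to 0.010 for Hal. In CUMS mild it ran from −0.010 to 0.27 for Arg1, −0.15 to 0.029 for Slc25a13, −0.15 to 0.26 for Gls2, −0.43 to 0.073 and −0.15 to 0.25 for the Glul probe sets 1367633_at and 1386870_at, and −0.41 to 0.0040 for Cebpb. The cause was not tested. Of the relations of Glul, 0 of 9 passed adjustment over all rats, 1 after quantile normalization (Arg1, r = −0.82, adjusted exact permutation p = 0.00248, chosen after seeing the data) and 0 to 2 with a rat left out. The 2 were without CUMS 6, with Cps1 (r = −0.94) and Arg1 (r = −0.79), whereas without control 3 r turned to 0.40 with Slc25a15 and 0.08 with Otc. Few rats limit what can be seen.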
